A study of Homo sapiens with 12 samples.

Results

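RNA-seq libraries from 4 groups of HT1080 cells, 1 from each of 2 index sets per group, were compared between the sets within each group. HT1080 is a human fibrosarcoma cell line. The libraries of the study were numbered 1 to 12 and reused the same 6 index sequences, once in libraries 1 to 6 (index set 1) and once in libraries 7 to 12 (index set 2). Members were chosen by library number: libraries 1, 4, 5 and 6 of index set 1 and libraries 7, 10, 11 and 12 of index set 2 formed 4 pairs, each pair holding 1 library per set of the same group. These were 8 of the 12 libraries; the 4 libraries of the GFP_tracer and GFP_tracer_Dam groups were left out by the rule.

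All 8 libraries came from cells that carry an inducible Dam methyltransferase fused to lamin B1 and an inducible m6A-Tracer, a protein that binds adenine-methylated DNA; each tracer version was carried by 1 clone. The m6A-Tracer clone gave 1 pair, m6ATracer-GFP-/DamLaminB1-, here GFP_uninduced. The m6A-Tracer-VP16 clone, whose tracer is fused to the VP16 activation domain, gave the other 3 pairs: m6ATracer-VP16-/DamLaminB1- (VP16_uninduced), m6ATracer-VP16+/DamLaminB1- (VP16_tracer) and m6ATracer-VP16+/DamLaminB1+ (VP16_tracer_Dam). Doxycycline was given to all of them at 50 ng/ml. It stayed on for 4 days in the uninduced groups, and in the tracer groups it was withdrawn after 3 days, 24 h before RNA isolation; VP16_tracer_Dam received 500 nM Shield1 in those 24 h, which stabilises the Dam fusion. The left-out groups, which enter some comparisons below, were m6ATracer-GFP+/DamLaminB1- (GFP_tracer) and m6ATracer-GFP+/DamLaminB1+ (GFP_tracer_Dam) of the m6A-Tracer clone. They also had doxycycline at 50 ng/ml, withdrawn after 3 days, 24 h before RNA isolation. GFP_tracer_Dam received 500 nM Shield1 in those 24 h. The series describes the second library of a group as a biological replicate. Differences of culture, RNA extraction, library preparation and sequencing between index set 1 and index set 2 cannot be told apart here, and no label calls either set a batch.

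Several programs of cultured cells are read below by their known genes. Interferons bind surface receptors and, through JAK kinases and the factors they activate, switch on antiviral genes that carry interferon-stimulated response elements. The p53 factor switches on genes that halt the cell cycle, among them the inhibitor CDKN1A, while dividing cells express replication and mitosis genes in waves. When amino acids are short or the endoplasmic reticulum is stressed, the translation factor eIF2 is phosphorylated and ATF4 switches on genes for amino acid uptake, amino acid synthesis and tRNA charging.

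The 8 libraries held 18774905 to 24827396 counted reads each over 36502 genes. Mesenchymal marker genes, including VIM, CD44 and AXL, summed to 11329 to 13382 CPM (counts scaled to library size by TMM) in set 1 and to 12181 to 13170.0 CPM in set 2, although the fibroblast surface markers NT5E and THY1 did not exceed 0.805 CPM. Defining markers of other cell types lay near 0: EPCAM did not exceed 0.200 CPM, PTPRC 0.0891 CPM and CDH5 0.670 CPM in any of the 8 libraries, and SOX2 had no read. Summed markers still differed between the sets: 302 to 342 against 243 to 277 CPM for epithelial genes (mostly the keratins KRT8 and KRT18), 92.9 to 114 against 56.4 to 65.5 CPM for endothelial genes (mostly TIE1) and 75.2 to 95.7 against 94.5 to 145 CPM for neural genes (mostly NCAM1). Their part in the results below was not tested. Over 13630 genes with a mean of at least 1 CPM, the first principal component held 43.3% of the variance. It ran from 13.0 to 28.2 in set 1 and from -29.8 to -15.4 in set 2, with no overlap, and the second component, with 37.2%, set the GFP clone at 38.0 and 30.3 against -16.5 to -4.6 for the VP16 clone. The share of reads from the mitochondrial genome was 3.40% to 3.56% in set 1 and 2.80% to 2.99% in set 2.

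The difference between the index sets was about as large as that between the clones and larger than that between treatments. Its median absolute size over those 13630 genes was 0.20, 0.18, 0.17 and 0.19 on the log2 scale in the GFP_uninduced, VP16_uninduced, VP16_tracer and VP16_tracer_Dam pairs, in that order. Inside a set, VP16_uninduced and GFP_uninduced differed by a median of 0.16 (set 1) and 0.18 (set 2), whereas the tracer and Dam steps of the VP16 clone differed by medians between 0.07 and 0.10. Between 334 and 445 genes differed at least 2-fold in a pair. The pairs share no library, and their gene-wise differences correlated with Pearson's r from 0.66 (GFP_uninduced and VP16_tracer_Dam) to 0.81 (VP16_tracer and VP16_tracer_Dam) across the 13630 genes, which are not independent replicates.

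Of 16553 genes tested, 6766 (40.9%) differed between the sets at an adjusted p under 0.05 (edgeR's quasi-likelihood test with the group as a block, Benjamini-Hochberg adjustment). Of all genes tested, 20.7% (3420) were called higher in set 1 and 20.2% (3346) lower. Most differences were small, with a median log2 difference of 0.36 among the higher and -0.31 among the lower genes, and the median over all genes tested was 0.01. All following log2 differences are set 1 minus set 2 from this fit, unless another fit is named. Their standard error (SE) comes from the fit, which shares information on spread across genes, and not from the 4 pairs alone. Interactions and their SE come from fits of their own. In 6499 of the 6766 called genes, all 4 pairs shared the sign of the fit, and the 4 values of set 1 lay all above those of set 2 in 12.8% of the genes tested and all below in 13.3%. With 4 pairs alone, no exact sign-based test can reach a two-sided p below 1 in 8, so the calls rest on a spread pooled across genes, with 3 residual degrees of freedom per gene. Tested against a fold of 1.5 rather than 1, 371 genes were higher and 52 lower, and without the group as a block 1721 were higher and 1788 lower.

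Differences of at least 2-fold in every pair without overlap ran almost entirely in 1 direction. Set 1 was higher for 208 genes (1.26% of those tested), of which 180 were protein coding and 107 had a mean of at least 1 CPM. It was lower for 7 genes (0.0423%): SLC7A11, CHAC1, INHBE, PHIP, MUC6, CR769776.4 and LINC00442. Without the GFP_uninduced pair the counts were 324 and 11. Leaving out the VP16_uninduced, VP16_tracer or VP16_tracer_Dam pair gave 18, 12 or 19 lower genes. At a fold of 1.5 in every pair, 429 genes were higher and 105 lower. A lower fold or 1 pair fewer loosens the rule, so these counts could hardly fall and do not test its stability.

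**Figure D1:**
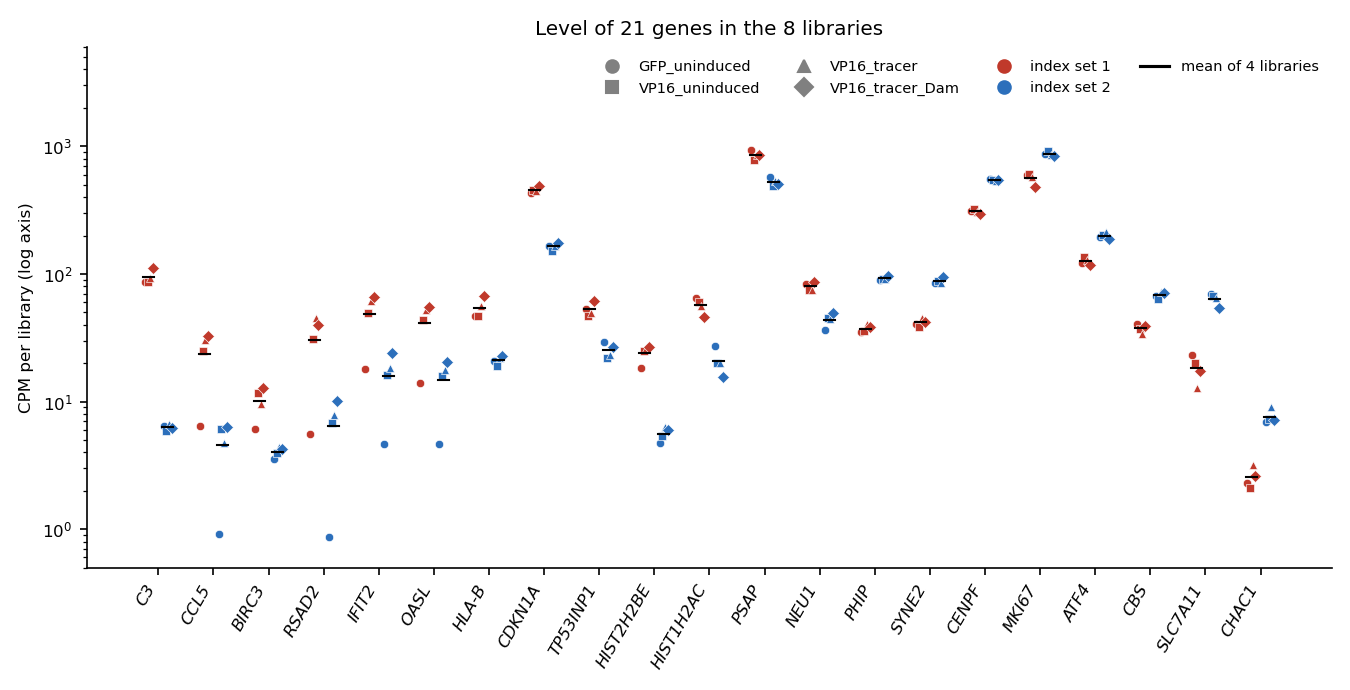
Level of 21 genes in each of the 8 libraries as CPM on a log axis, with index set 1 in red, index set 2 in blue, a symbol for each group and a black line at the mean of 4 libraries. The sets separate for C3 (86.6 to 110.4 against 5.87 to 6.71 CPM) and CDKN1A, whereas for RSAD2, IFIT2 and OASL the GFP_uninduced library lies below the VP16 libraries of the same set.

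The 12 genes higher in set 1 that were named by size code for proteins of several kinds, and 1 is a lincRNA. C3, the central complement protein (chromosome 19, 6677846 to 6730573, GRCh37), stood at 86.6, 86.7, 92.7 and 110.4 CPM in set 1 and at 6.41, 5.87, 6.71 and 6.23 CPM in set 2; here and below, values follow the order GFP_uninduced, VP16_uninduced, VP16_tracer, VP16_tracer_Dam. All 4 values of set 1 exceeded every value of set 2 more than 10-fold, and the log2 difference was 3.89 ± 0.07 (SE; adjusted p = 5.38e-13, edgeR). PI3, an inhibitor of elastase, had 3.78, 4.24, 4.79 and 6.09 CPM in set 1 against 0.0796, 0.135, 0.177 and 0.307 CPM in set 2. Its log2 difference of 4.73 ± 0.22 (edgeR adjusted p = 1.34e-08) rested on 16 reads in the 4 libraries of set 2. OLAH, a thioesterase of fatty acid synthesis, lay at 3.60 to 4.52 CPM in set 1 and 0.0398 to 0.351 CPM in set 2, with a log2 difference of 4.66 ± 0.28.

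The adhesion receptor CEACAM1 lay at 3.28 to 5.15 CPM in set 1 and 0.0796 to 0.395 CPM in set 2, a log2 difference of 4.49 ± 0.27. The myeloid receptor TREM2 lay at 6.88 to 11.5 CPM and 0.662 to 1.05 CPM, a difference of 3.55 ± 0.14. CCL3, a chemokine, differed by 4.03 ± 0.28, and PLA2G2D, a secreted phospholipase, by 3.43 ± 0.22. GAS7, IGFL3 and CYP4F3, which hydroxylates leukotriene B4, differed by 3.92 ± 0.25, 4.40 ± 0.29 and 3.10 ± 0.33. The remaining genes of the 12 named by the rule were AL450307.1, at 3.66 ± 0.19, and the lincRNA AC019172.2, at 3.52 ± 0.16. The 12 genes had edgeR adjusted p-values up to 6.95e-05, and in all of them set 1 lay above set 2 without overlap. Apart from C3, none exceeded 20 CPM in any of the 8 libraries. As for PI3, several of these differences rested on few reads in the 4 libraries of set 2 together. These were 11 for CCL3, 14 for OLAH, 15 for GAS7, 17 for CEACAM1 and 20 for IGFL3.

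The genes lower in set 1 that were named by size held 2 genes of cystine and glutathione handling, SLC7A11 and CHAC1. SLC7A11, the cystine and glutamate exchanger (chromosome 4, 139085251 to 139163503, GRCh37), stood at 23.3, 19.9, 12.7 and 17.2 CPM in set 1 and at 69.5, 67.4, 64.8 and 54.3 CPM in set 2. Every library of set 1 was below every library of set 2, with a log2 difference of -1.82 ± 0.13 (edgeR adjusted p = 0.000127). CHAC1, an enzyme that degrades glutathione, had 2.31, 2.10, 3.19 and 2.59 CPM against 6.97, 7.36, 9.00 and 7.11 CPM, a difference of -1.57 ± 0.11 (edgeR adjusted p = 3.65e-07). INHBE, an inhibin subunit, had 4.80 to 6.62 CPM in set 1 and 13.0 to 19.1 CPM in set 2, a difference of -1.37 ± 0.09.

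PHIP, a bromodomain protein (chromosome 6, 79650263 to 79787953, GRCh37), had 34.8, 35.7, 40.8 and 38.1 CPM in set 1 and 90.3, 90.8, 91.7 and 95.8 CPM in set 2. Its libraries varied little within a set, and the sets differed by -1.30 ± 0.05 (edgeR adjusted p = 2.25e-09). MUC6, a gel-forming mucin, differed by -1.48 ± 0.16 and KIAA1644 by -1.23 ± 0.15. The lower genes named by the rule also held RP11-709B3.2 (-1.68 ± 0.36), RP11-327I22.6, AC073046.25, the pseudogene RP11-495P10.9, the antisense gene AC137932.5 and BLID, all with means under 4 CPM and log2 differences from -1.54 to -1.14 for the last 5. Reads of the antisense genes and their partners cannot be told apart, since the use of strand is not given in the sources used here.

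Antiviral genes of the interferon response were mostly higher in set 1, and both interferon list medians were above 0 in each of the 4 pairs. Of 42 tested antiviral effector genes, 30 were called higher and 0 lower, with a median log2 difference of 0.88. Of 27 tested genes for sensing and signalling, 22 were higher and 1 lower, with a median of 0.67. RSAD2, an antiviral radical enzyme, had 5.60, 31.2, 45.2 and 39.7 CPM in set 1 and 0.876, 6.77, 7.90 and 10.1 CPM in set 2 (log2 difference 2.26 ± 0.10; edgeR adjusted p = 1.34e-08). Each library of set 1 was above its partner, yet the ranges overlapped, because GFP_uninduced was lower than the VP16 groups in both sets. IFIT2, which binds viral RNA, had 17.9, 49.2, 61.1 and 66.5 CPM against 4.62, 16.1, 18.4 and 24.2 CPM, and differed by 1.65 ± 0.07 (edgeR adjusted p = 9.89e-09).

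OASL, a relative of the oligoadenylate synthetases, differed by 1.49 ± 0.06 and IFI44 by 1.66 ± 0.07. IFI27, a mitochondrial protein, lay at 0.711 to 16.1 CPM in set 1 and 0.0398 to 0.834 CPM in set 2, a difference of 3.94 ± 0.18. In each of these 3 genes the GFP_uninduced library of set 1 was within the range of the VP16 libraries of set 2 or below it, as for RSAD2. Among the sensing and signalling genes, the nuclear body proteins SP110 and SP100 differed by 0.67 ± 0.06 and 0.42 ± 0.05, the antibody receptor TRIM21 by 0.77 ± 0.08, STAT2 by 0.50 ± 0.07 and TRIM25, a ubiquitin ligase of the RIG-I pathway, by 0.27 ± 0.04. Among 9 tested interferon receptor and kinase genes, IL10RB was higher (0.30 ± 0.06), JAK2 was lower (-0.38 ± 0.06) and 7 were not called; with GC content and length modelled 3 were higher and 2 lower. The interferons themselves did not pass the count filter: over the 8 libraries IFNB1 had 3 reads in set 2 and 0 in set 1, IFNG had 1 in set 1 and 0 in set 2, IL29 had 3 in set 1 and 5 in set 2, and IL28B had 2 in set 1 and 0 in set 2.

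The promoters of 3 of the interferon genes and 3 of the ATF4-linked genes described below are shown because both groups of genes moved together and their factors have known binding letters. Each is the 250 bases before a start of the gene in RefSeq (GRCh38.p14). In the first 3, capitals mark matches to GAAANNGAA, the core of the interferon-stimulated response element. In the last 3, capitals mark matches to TGATGNAA, the core of the CARE element bound by ATF4 with a C/EBP factor. Matches were sought on both strands. Only windows with a match are shown, and some of these genes have further RefSeq starts. Windows drawn in the same way for XAF1 (interferon core) and CARS (CARE core) held 0 matches.
IFI27, chr14:94110486-94110735, plus strand: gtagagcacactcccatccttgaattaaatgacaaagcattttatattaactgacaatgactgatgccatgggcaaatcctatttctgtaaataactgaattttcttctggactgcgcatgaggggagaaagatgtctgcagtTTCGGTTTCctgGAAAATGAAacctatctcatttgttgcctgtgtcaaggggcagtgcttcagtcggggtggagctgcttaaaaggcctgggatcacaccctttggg
RSAD2, chr2:6877527-6877776, plus strand: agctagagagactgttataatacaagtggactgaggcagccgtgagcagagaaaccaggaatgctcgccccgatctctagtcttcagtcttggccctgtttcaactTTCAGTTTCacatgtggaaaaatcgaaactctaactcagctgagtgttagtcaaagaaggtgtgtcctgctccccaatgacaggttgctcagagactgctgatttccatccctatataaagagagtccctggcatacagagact
IFI44, chr1:78649539-78649788, plus strand: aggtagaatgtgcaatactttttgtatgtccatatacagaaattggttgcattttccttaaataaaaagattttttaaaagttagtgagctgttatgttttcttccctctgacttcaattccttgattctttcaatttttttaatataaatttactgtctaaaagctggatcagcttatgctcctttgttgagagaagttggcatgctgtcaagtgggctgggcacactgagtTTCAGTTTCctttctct
CHAC1, chr15:40953221-40953470, plus strand: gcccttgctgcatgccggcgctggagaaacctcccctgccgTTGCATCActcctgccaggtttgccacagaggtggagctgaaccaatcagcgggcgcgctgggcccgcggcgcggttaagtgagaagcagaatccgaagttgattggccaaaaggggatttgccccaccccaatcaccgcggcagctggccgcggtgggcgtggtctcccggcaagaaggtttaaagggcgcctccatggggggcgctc
AARS (AARS1 in RefSeq), chr16:70289507-70289756, minus strand: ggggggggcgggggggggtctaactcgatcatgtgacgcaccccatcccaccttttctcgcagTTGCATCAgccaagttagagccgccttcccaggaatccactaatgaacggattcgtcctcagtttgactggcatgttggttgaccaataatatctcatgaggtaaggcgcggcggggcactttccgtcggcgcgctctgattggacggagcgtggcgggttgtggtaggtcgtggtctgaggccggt
IARS (IARS1 in RefSeq), chr9:92293698-92293947, minus strand: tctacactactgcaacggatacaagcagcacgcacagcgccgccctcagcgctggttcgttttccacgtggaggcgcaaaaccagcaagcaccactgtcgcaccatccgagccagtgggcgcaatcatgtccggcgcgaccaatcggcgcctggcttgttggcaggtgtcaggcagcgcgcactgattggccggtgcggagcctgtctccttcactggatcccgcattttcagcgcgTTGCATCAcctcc

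RefSeq promoter windows of 300 bases, from 250 before to 50 after a start, were matched for 11372 of the 16553 genes tested. The interferon core stood in a window of 37 of 53 matched genes of the 2 interferon lists (69.8%), of 8.82% of all matched genes, of 10.2% of the genes called higher and of 9.30% of those called lower. It was found in 25 of 41 interferon genes called higher and in 12 of 12 that were not called higher. The CARE core stood in 8 of 27 integrated stress genes (29.6%) and 7 of 16 tRNA synthetase genes (43.8%), against 3.05% of all matched genes, 2.91% of the genes called higher and 4.16% of those called lower. Among the 132 matched genes at least 2-fold higher in every pair, 14.4% had the interferon core and 6.82% the CARE core. A match gives letters in the window and does not show that a factor was bound.

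Genes of MHC class I antigen presentation and NF-kB target genes were also higher in set 1. Of 19 tested genes of MHC class I presentation, 17 were called higher and 0 lower (median 0.31). HLA-B had 47.2, 47.1, 56.1 and 67.4 CPM in set 1 and 20.6, 19.1, 21.9 and 22.7 CPM in set 2. Its sets did not overlap and differed by 1.36 ± 0.06 (edgeR adjusted p = 1.34e-08). HLA-C, HLA-E, the loading chaperone TAPBP and the immunoproteasome subunit PSMB9 differed by 0.85 ± 0.06, 0.78 ± 0.05, 0.45 ± 0.04 and 0.73 ± 0.08; HLA genes have near-identical copies, and reads may be split between them. Of 7 tested MHC class II genes, 2 were higher, and 1 with GC content and length modelled. Their higher share, 28.6%, was not far above the 20.7% over all genes tested.

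Among 22 tested NF-kB targets and cytokines, 15 were higher and 1 lower, with a median of 0.51. CCL5, a T cell chemokine, had 6.48, 25.0, 30.6 and 32.4 CPM in set 1 and 0.916, 6.14, 4.77 and 6.32 CPM in set 2. The lowest library of set 1, GFP_uninduced, was just above the highest of set 2, and the difference was 2.40 ± 0.11 (edgeR adjusted p = 2.4e-08). BIRC3, an inhibitor of cell death, differed by 1.29 ± 0.13, TNFAIP3, which ends NF-kB signalling, by 0.81 ± 0.08, and the NF-kB subunits RELB and NFKB2 by 0.77 ± 0.06 and 0.49 ± 0.05. Of 3 tested blood cell markers, the macrophage glycoprotein CD68 (0.74 ± 0.04) and the integrin ITGAM (2.09 ± 0.23) were higher and 1 was lower; the summed blood marker level was 187 to 346 CPM in set 1 and 120 to 189 CPM in set 2, nearly all of it CD68. CD68 lay at 118 to 342 CPM over the libraries of both sets. ITGAM reached 2.26 CPM, no other blood marker exceeded that, and PTPRC did not exceed 0.0891 CPM. In bulk libraries, more cells of a type and more RNA per cell cannot be told apart. The source of the blood marker reads was not tested.

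**Figure D2:**
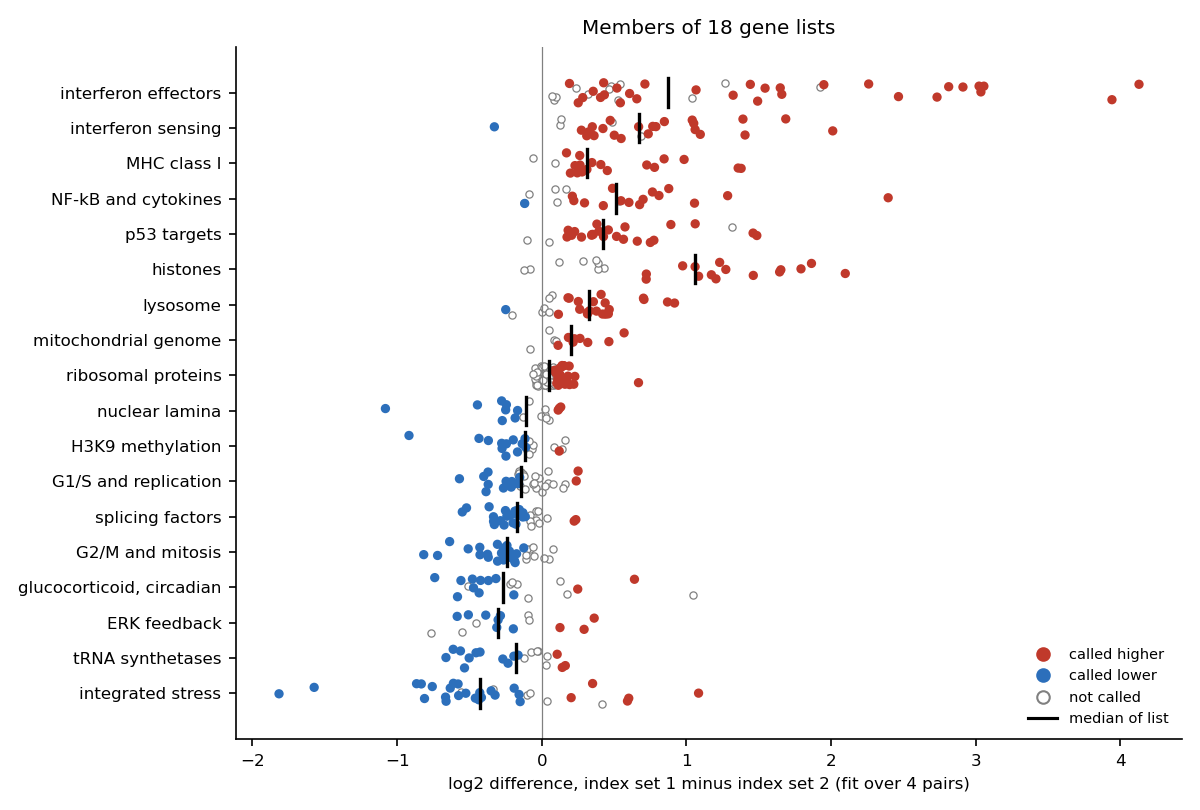
Fitted log2 difference, index set 1 minus index set 2, of every tested member of 18 gene lists, with genes called higher in red, called lower in blue, not called in white, and a black bar at each list's median. Medians run from 1.06 for histones and 0.88 for interferon effectors to -0.43 for integrated stress genes.

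Genes of the p53 response were higher in set 1 and mitosis genes lower. Of 25 tested p53 targets, 22 were called higher and 0 lower, with a median of 0.43 and pair medians of 0.37, 0.46, 0.42 and 0.49. CDKN1A, the p21 inhibitor of cyclin-dependent kinases (chromosome 6, 36644305 to 36655116, GRCh37), had 429, 454, 446 and 488 CPM in set 1 and 167, 151, 166 and 175 CPM in set 2. Every library of set 1 held more than any of set 2, and the difference was 1.46 ± 0.04 (edgeR adjusted p = 1.33e-10). TP53INP1 differed by 1.06 ± 0.06, the mitochondrial reductase FDXR by 0.89 ± 0.05, PHLDA3, an inhibitor of AKT, by 0.75 ± 0.04, and the kinase PLK2 by 0.58 ± 0.05.

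Of 32 tested G2/M genes, 23 were lower and 0 higher (median -0.24). CENPF, a kinetochore protein, had 311, 323, 308 and 297 CPM in set 1 and 552, 545, 536 and 547 CPM in set 2, with sets well apart and a difference of -0.82 ± 0.03 (edgeR adjusted p = 9.22e-09). MKI67, the Ki-67 proliferation marker, differed by -0.64 ± 0.04, the kinesin CENPE by -0.72 ± 0.05, the topoisomerase TOP2A by -0.51 ± 0.04 and DLGAP5 by -0.43 ± 0.04. Of 35 tested G1/S genes, 13 were lower, 2 higher and 20 not called. MCM6 and POLA1 differed by -0.40 ± 0.05 and -0.57 ± 0.07, while PCNA, which is both a replication clamp and a p53 target, was higher by 0.25 ± 0.04.

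Histone genes had the highest list median. Of 51 histone genes in the list, 23 passed the count filter, and the median covers only these. Among the 23 tested, 15 were higher and 0 lower (median 1.06). HIST2H2BE had 18.2, 25.1, 26.3 and 26.9 CPM in set 1 and 4.74, 5.33, 6.31 and 6.01 CPM in set 2, without overlap (difference 2.10 ± 0.08; edgeR adjusted p = 2.25e-09). HIST1H2AC differed by 1.46 ± 0.06, HIST1H4H by 1.79 ± 0.13, HIST1H2BD by 1.27 ± 0.09 and HIST1H2BK by 0.72 ± 0.04. Most histone messages lack a poly(A) tail, but HIST2H2BE, HIST1H2AC, HIST1H2BD and HIST1H2BK are known to give polyadenylated transcripts as well. Histone genes have near-identical copies, so the level of each is uncertain.

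Amino acid response genes were mostly lower in set 1, with a list median below 0 in each of the 4 pairs. Of 33 tested genes of the integrated stress response, 22 were called lower and 5 higher, with a median of -0.43. ATF4 itself had 122, 137, 129 and 116 CPM in set 1 and 196, 202, 211 and 189 CPM in set 2, and the 4 libraries of set 1 all lay below those of set 2 (difference -0.66 ± 0.04; edgeR adjusted p = 5.86e-08). CBS, which makes cystathionine for cysteine synthesis, had 34.0 to 40.3 CPM against 63.5 to 72.4 CPM, a difference of -0.87 ± 0.06. CEBPG, a partner of ATF4, and PHGDH, the first enzyme of serine synthesis, differed by -0.61 ± 0.05 and -0.58 ± 0.05.

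Of 20 tested aminoacyl-tRNA synthetases, which charge tRNAs with amino acids, 11 were lower and 3 higher (median -0.18). AARS had 146, 148, 163 and 162 CPM in set 1 and 211, 234, 256 and 246 CPM in set 2, again without overlap (difference -0.61 ± 0.04; edgeR adjusted p = 8.46e-08). YARS, EPRS, MARS and IARS differed by -0.56 ± 0.05, -0.50 ± 0.04, -0.45 ± 0.04 and -0.43 ± 0.03. ATF3, a stress factor that both ATF4 and p53 are known to switch on, ran the other way, at 15.4, 12.3, 13.9 and 18.7 CPM in set 1 against 9.67, 7.27, 8.96 and 8.65 CPM in set 2 (difference 0.80 ± 0.09). Of 22 ER chaperone genes 9 were lower and 3 higher, and of 29 heat shock genes 6 were lower and 2 higher. The lower share of the heat shock genes, 20.7%, was near that of all genes tested, and 11 were lower and 3 higher with GC content and length modelled.

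Lysosomal genes and ferritins were higher in set 1. Of 28 tested lysosome and autophagy genes, 21 were higher and 1 lower (median 0.32). PSAP, the precursor of the saposins, had 931, 779, 856 and 857 CPM in set 1 and 572, 486, 538 and 507 CPM in set 2, without overlap (difference 0.70 ± 0.03; edgeR adjusted p = 1.41e-08). The sialidase NEU1, the proton pump subunit ATP6V0D1 and the protease CTSD differed by 0.87 ± 0.07, 0.47 ± 0.05 and 0.42 ± 0.04. Of 23 tested NRF2 targets 10 were higher and 0 lower, led by the ferritin chains FTL (0.56 ± 0.04) and FTH1 (0.67 ± 0.05); 6 were higher when GC content and transcript length were modelled.

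Genes of the mitochondrial genome were higher in 8 of 12 cases and lower in 0 (median 0.20). MT-CO1, a subunit of cytochrome oxidase, had 5591, 5939.7, 5896 and 6082 CPM in set 1 and 3458, 4001, 4282 and 4139 CPM in set 2 (difference 0.57 ± 0.04), and MT-CO2 differed by 0.46 ± 0.04. Of 48 nuclear genes of the respiratory chain, 5 were higher and 1 lower, and 4 were higher and 9 lower with GC content and length modelled. For ribosomal proteins 23 of 79 were higher and 0 lower, with a median of 0.05; modelling GC content and length left 5 higher and 10 lower, and leaving out the VP16_uninduced or the VP16_tracer pair left 10 or 13 higher.

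Splicing factors were mostly lower in set 1 by modest amounts. Of 30 tested, 20 were lower and 2 higher (median -0.17): PNISR differed by -0.52 ± 0.04, the kinase CLK1 by -0.55 ± 0.04, SRSF11 by -0.36 ± 0.03, SON by -0.33 ± 0.04 and SF3B1 by -0.28 ± 0.03. The nuclear RNA MALAT1 was not called (-0.06 ± 0.05). RN7SL1, the RNA of the signal recognition particle, had 704, 941, 1176 and 1073 CPM in set 1 and 272, 246, 168 and 256 CPM in set 2. All libraries of set 1 lay above those of set 2 (difference 2.04 ± 0.29; edgeR adjusted p = 0.0152), but the gene has near-identical copies and its level is uncertain. Its call was lost without the VP16_uninduced pair (edgeR adjusted p = 0.0613) or the VP16_tracer_Dam pair (edgeR adjusted p = 0.0774).

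The study's subject, contacts between chromatin and the nuclear lamina, is served by 2 lists. Of 18 tested nuclear lamina genes, 8 were lower and 3 higher (1 higher with GC content and length modelled), and of 21 genes of H3K9 methylation 12 were lower and 1 higher. SYNE2, which links the nuclear envelope to the cytoskeleton, had 40.4, 38.6, 45.5 and 42.0 CPM in set 1 and 84.2, 88.0, 85.2 and 94.9 CPM in set 2 (difference -1.08 ± 0.05; edgeR adjusted p = 1.41e-08), without overlap. SYNE1, LBR, CBX5 and SUN1 differed by -0.44 ± 0.07, -0.27 ± 0.04, -0.24 ± 0.03 and -0.18 ± 0.03. CBX5 was not called with GC content and length modelled (-0.03). JHDM1D, a histone demethylase, had 7.28 to 10.3 CPM against 12.3 to 19.7 CPM, a difference of -0.92 ± 0.08, and the H3K9 demethylase PHF2 differed by -0.43 ± 0.05.

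LMNB1 had 168, 164, 151 and 121 CPM in set 1 and 189, 184, 179 and 175 CPM in set 2 (difference -0.28 ± 0.06; edgeR adjusted p = 0.00264); all cells carry a Dam fusion with lamin B1, and the counts do not separate it from the endogenous gene. EHMT1, a subunit of the G9a and GLP methyltransferase that places H3K9 dimethylation, had 81.0 to 87.8 CPM against 88.8 to 93.6 CPM, a small difference called by the fit (-0.13 ± 0.04; edgeR adjusted p = 0.0105). Its call was lost without the VP16_uninduced pair (edgeR adjusted p = 0.0544) and with DESeq2 (adjusted p = 0.0790). EHMT2, the other subunit, was at 90.6 to 95.3 CPM and 95.6 to 103 CPM and was not called (-0.09 ± 0.04; edgeR adjusted p = 0.0723), although 2 alternatives called it lower: GC content and length modelled (-0.19, edgeR adjusted p = 0.00165) and counts thinned to the smallest total (-0.11, edgeR adjusted p = 0.0374).

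Clock, growth factor and matrix genes differed in both directions. Of 20 tested glucocorticoid and circadian genes, 10 were lower and 2 higher (median -0.27). PER3 had 20.5, 17.4, 15.1 and 16.8 CPM in set 1 and 34.0, 27.9, 27.4 and 27.1 CPM in set 2 (difference -0.74 ± 0.06), and PER2, NR1D2 and CLOCK differed by -0.56 ± 0.08, -0.58 ± 0.05 and -0.43 ± 0.05. ARNTL, whose product pairs with CLOCK, was higher, at 18.5, 22.3, 25.2 and 31.9 CPM against 14.9, 15.1, 15.1 and 16.9 CPM (difference 0.64 ± 0.09; edgeR adjusted p = 0.000132). Among 15 genes that report ERK signalling, 7 were lower, with ETV1 at -0.58 ± 0.06, SPRY4 at -0.31 ± 0.04, ETV5 at -0.30 ± 0.04 and ETV4 at -0.29 ± 0.04, and 3 higher, including CCND1 (0.29 ± 0.05); with GC content and length modelled 1 was higher. The aryl hydrocarbon receptor target CYP1A1 had 44.6, 16.1, 17.5 and 21.1 CPM against 18.3, 7.27, 7.15 and 6.72 CPM, with the GFP_uninduced library highest in each set (difference 1.34 ± 0.08).

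Of 29 tested collagens 8 were lower and 3 higher, with COL6A1 and COL6A3 at -0.52 ± 0.04 and -0.39 ± 0.03. Their lower share, 27.6%, was not far above the 20.2% over all genes tested. The collagen median was -0.06, with pair medians of both signs. Of 34 matrix glycoproteins 14 were higher and 8 lower. The protease inhibitor SERPINE2 was higher by 0.74 ± 0.05. Among YAP targets and regulators, TEAD1 and PTPN14 were lower by -0.54 ± 0.04 and -0.83 ± 0.05, in a list of 17 tested with 5 higher and 4 lower; with GC content and length modelled 2 were higher and 3 lower. The shares of the YAP list, 29.4% higher and 23.5% lower, were not far above the 20.7% and 20.2% over all genes tested. Of 16 integrins 9 were lower and 3 higher, and 5 were lower when GC content and length were modelled. Clustered protocadherins, cell adhesion genes that share exons or close copies, were higher in 14 of 27 and lower in 1; PCDHA1 and PCDHB16 differed by 2.86 ± 0.25 and 1.97 ± 0.28, both below 3 CPM, and 7 members were called higher among genes with at least 1 CPM in 4 libraries. Leaving out the VP16_tracer or the VP16_tracer_Dam pair left 9 higher. Of 437 zinc finger genes 66 were higher and 71 lower, shares below those over all genes tested.

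**Figure D3:**
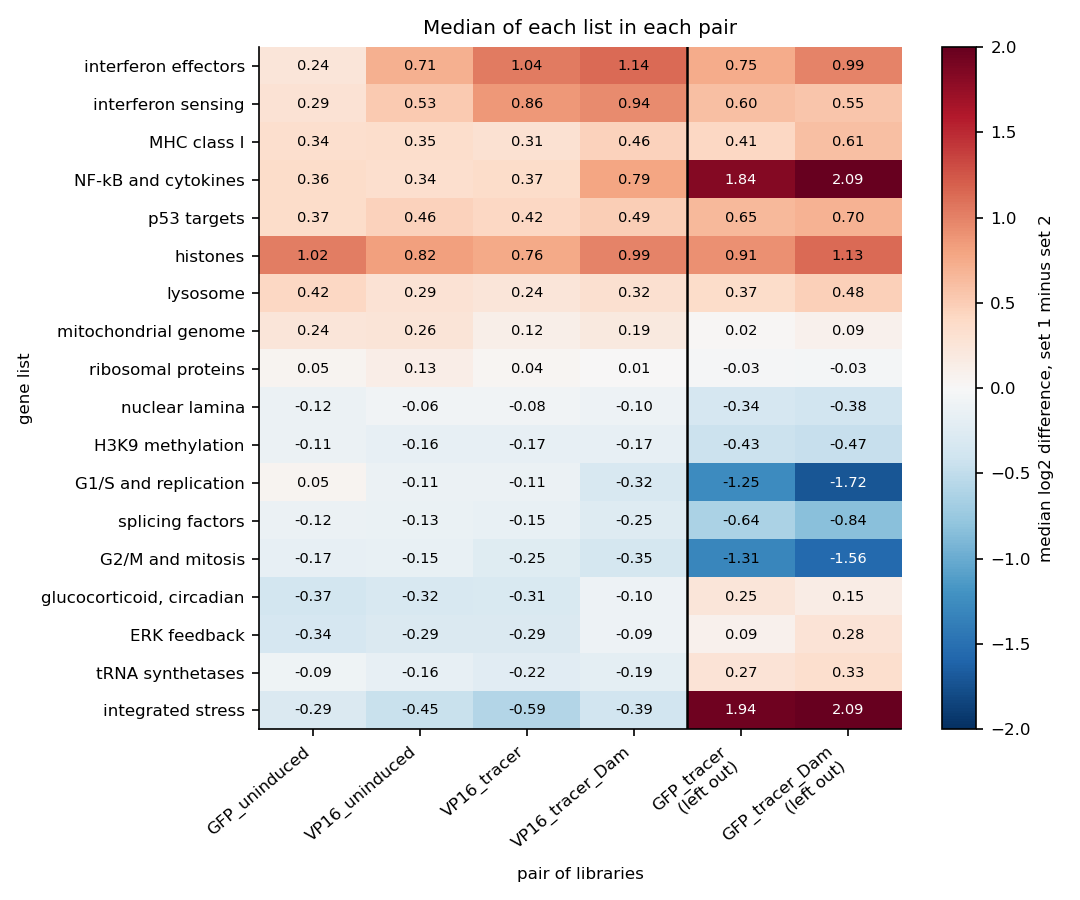
Median log2 difference, index set 1 minus index set 2, of 18 gene lists in each of the 4 pairs (left of the line) and in the 2 pairs that were left out (right of the line), with red for higher and blue for lower in set 1. Integrated stress genes have medians from -0.59 to -0.29 in the 4 pairs and of 1.94 and 2.09 in the left-out pairs.

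Whether the GFP_uninduced pair differed from the 3 VP16 pairs was tested as an interaction of index set with clone. Of 17424 genes tested in that fit, 1.41% (246) had a higher and 1.68% (292) a lower set 1 minus set 2 difference in the GFP_uninduced pair. Interferon genes were among the latter, with 9 of 42 effectors and 9 of 27 sensing genes lower in that pair and 0 higher; their list medians were 0.24 and 0.29 in GFP_uninduced and 0.53 to 1.14 in the VP16 pairs. YAP targets ran the other way, with 7 of 17 higher and 1 lower. CTGF, a secreted YAP target, had 164, 128, 142 and 128 CPM in set 1 and 70.9, 105, 114 and 101 CPM in set 2. Its sets differed most in GFP_uninduced, and the interaction was 0.89 ± 0.08 (edgeR adjusted p = 2.89e-08).

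The YAP target AMOTL2, the ubiquitin ligase NEDD4L, OGFRL1, SBSN and the long noncoding RNA UCA1 had interactions of 0.63 ± 0.07, 0.60 ± 0.07, 0.90 ± 0.09, 0.64 ± 0.07 and 1.31 ± 0.15. In the opposite direction FN1, fibronectin, had 521, 1022, 1434 and 1630.4 CPM in set 1 and 2141, 2003, 2528 and 2596 CPM in set 2, with GFP_uninduced of set 1 the lowest library (interaction -1.23 ± 0.09; edgeR adjusted p = 8.01e-06). CA9, a carbonic anhydrase induced by hypoxia, had 13.6, 24.8, 37.3 and 36.9 CPM and 32.8, 26.1, 34.0 and 33.1 CPM and differed between the sets in GFP_uninduced more than in any VP16 pair (interaction -1.35 ± 0.13). The gelatinase MMP9, the growth factor TGFA, the proteoglycan SDC3 and H6PD, an enzyme of the endoplasmic reticulum, had interactions of -1.20 ± 0.12, -0.93 ± 0.08, -1.07 ± 0.11 and -0.84 ± 0.09. Of 30 hypoxia and glycolysis genes, 8 had a lower difference in GFP_uninduced and 0 a higher one. The GFP clone is represented by 1 pair here, so its clone and its pair cannot be told apart. DESeq2 called 38 genes higher and 46 lower. Without the VP16_uninduced pair edgeR called 413 higher and 532 lower, and without the VP16_tracer_Dam pair 408 and 415.

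The 4 pairs also differed from the 2 pairs left out. Both left-out pairs came from the GFP clone, whereas all kept pairs but GFP_uninduced came from the VP16 clone. Clone and left-out group are therefore partly confounded in this comparison. In a fit to all 12 libraries, 20.1% (3472) of 17262 genes had a higher and 20.8% (3591) a lower set 1 minus set 2 difference in the left-out pairs than in the 4 pairs. Gene-wise differences of a kept and a left-out pair correlated with r from 0.42 to 0.52 over the 13630 genes. CHAC1, lower in set 1 in all 4 pairs, was at 79.8 and 74.3 CPM in the left-out GFP_tracer and GFP_tracer_Dam libraries of set 1 and at 4.66 and 4.73 CPM in those of set 2. Its order was thus reversed there, and the interaction was 5.64 ± 0.14 (edgeR adjusted p = 1.41e-11). The same held for INHBE (4.96 ± 0.13), CEBPG (2.84 ± 0.07), the pseudokinase TRIB3 (2.90 ± 0.08) and the phosphatase PTPDC1 (3.51 ± 0.12), and GADD45A, higher in set 1 throughout, had an interaction of 2.68 ± 0.09.

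Lower in the left-out pairs were SKP2, which targets cell cycle inhibitors for degradation (-3.40 ± 0.10), the mitotic helicase ERCC6L (-2.80 ± 0.11), LPCAT1 (-2.42 ± 0.09), the caveolar protein PTRF (-2.02 ± 0.07), the tubulin TUBB4B (-1.98 ± 0.07) and the nuclear receptor NR2F2 (-1.78 ± 0.07). In the 4 pairs these 6 genes differed between the sets by -0.20 to 0.36. With a single index set coefficient over all 12 libraries, 2696 genes were higher and 2173 lower, and CHAC1, INHBE, CEBPG and AARS changed sign, to 0.18, 0.10, 0.28 and 0.02. Of the 25 p53 targets, 8 had a higher and 5 a lower difference in the left-out pairs, with PLK2 at -0.83 ± 0.14. Over all genes tested for this interaction, 20.1% had a higher and 20.8% a lower difference. The lower count of the p53 targets was near that share. PCNA, from the replication list, had an interaction of -1.46 ± 0.07. CDKN1A, PHLDA3 and C3 had interactions of 0.11 ± 0.08, -0.04 ± 0.07 and 0.15 ± 0.14 that were not called (edgeR adjusted p = 0.31, 0.693 and 0.426).

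**Figure D4:**
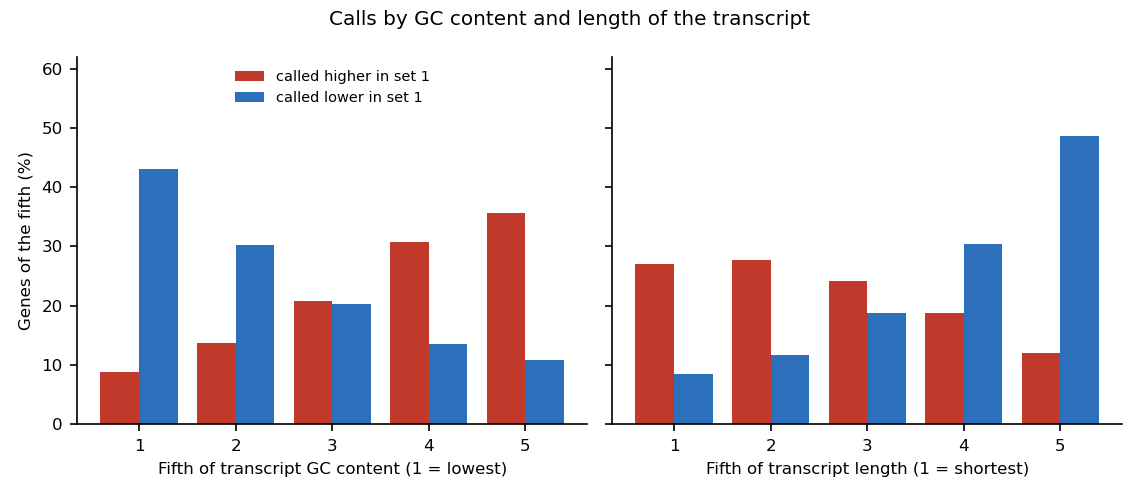
Share of genes called higher (red) or lower (blue) in index set 1, with genes cut into 5 equal groups by GC content (left) and by length (right) of the longest transcript model, among 13258 genes with a mean of at least 1 CPM. Lower calls reach 43.0% at the lowest GC content and rise from 8.44% to 48.7% with length, and higher calls reach 35.6% at the highest GC content.

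Calls varied with the composition and length of transcripts. With genes cut into 5 equal groups, 43.0% were called lower and 8.75% higher in set 1 at the lowest GC content (23.1% to 41.1%), and at the highest (58.0% to 74.1%) 35.6% were higher. Among the longest transcripts, 48.7% were lower and 12.0% higher. Across 13258 genes, the fitted difference correlated with GC content at a Spearman's rho of 0.32 and with length at -0.29, and the rho for GC content was 0.23, 0.31, 0.28 and 0.34 in the 4 pairs. With GC content and length modelled per library, an alternative added after seeing the data, 2727 genes were higher and 3288 lower of 15945 tested, 2266 and 2389 of them shared with the calls above and 13 called in the opposite direction. The p53 targets then stood at 22 higher of 25, interferon effectors at 29 of 42, lysosomal genes at 20 of 28, integrated stress genes at 23 lower of 33 and G2/M genes at 24 lower of 32, while MALAT1 was called higher at 0.14. MHC class I genes fell from 17 to 13 higher of 19. NF-kB and cytokine genes fell from 15 higher of 22 to 11 of 21, with a median of 0.37 in place of 0.51. Whether composition and length play a part in single genes was not tested.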

How the data were processed

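RNA of the 8 libraries was prepared with a TruSeq RNA kit, per the labels' protocols. Raw read counts per gene and library came in 1 table that the authors deposited. The submitters' processing notes name TopHat 1.4.0, Bowtie 0.12.7, HTSeq and the genome build GRCh37; poly(A) selection and the handling of strand are not given there or in the labels. Columns were assigned to libraries by name. Genes with too few counts were removed with filterByExpr, leaving 16553, and libraries were scaled by TMM. The fit was edgeR 4.0.16 (R 4.3.3), quasi-likelihood and robust, with group and index set as terms, and Benjamini-Hochberg adjustment over all genes kept, threshold 0.05. CPM are TMM-scaled; differences per pair used log2 CPM with a prior count of 2. A standard error is the absolute log2 difference over the square root of F.

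Named genes were up to 12 per direction by size among called genes with a mean of at least 1 CPM, the same sign in all pairs, no overlap between sets and a symbol; up to 5 members of each list by smallest p; up to 6 per direction of each interaction, also by p. The study's own LMNB1, EHMT1 and EHMT2 were added. The members and the 52 gene lists were chosen with earlier results of these data known. Lists are described by counts and medians, without set tests. Promoter sequences came from RefSeq (GRCh38.p14), matched to genes by symbol. Gene positions came from the annotation of the counts' build, GRCh37. Positions from the builds were not combined. GC content and length came from GENCODE v29 transcript models, matched by gene identifier and not from the counts' own annotation. They entered as splines per library as offsets, an alternative added after seeing the data. DESeq2 1.42.0 and limma 3.58.1 were alternatives. On simulated data the fit recovered 56 of 67 genes changed 1.5-fold, 67 of 67 changed 2-fold and 66 of 66 changed 4-fold. It made 21 false calls among 16297 genes. The changed genes were few and drawn from well-counted genes, with noise independent between genes, whereas 40.9% of genes were called in the data. Recovery of genes with low counts was not simulated.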

Additional observations from a re-analysis of the deposited data

Results flagged for a closer look

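The difference between index set 1 and index set 2 was not the same in all pairs, and 24 genes were picked out for this, 12 by each of 2 interaction terms. The edgeR test of the GFP_uninduced pair against the 3 VP16 pairs gave a larger set 1 minus set 2 difference in GFP_uninduced for CTGF (0.89 on the log2 scale, adjusted p = 2.89e-08), OGFRL1 (0.90), NEDD4L (0.60), UCA1 (1.31), SBSN (0.64) and AMOTL2 (0.63). It gave a smaller one for TGFA (-0.93), CA9 (-1.35), MMP9 (-1.20), SDC3 (-1.07), H6PD (-0.84) and FN1 (-1.23, adjusted p = 8.01e-06). All 12 kept their call with DESeq2, with limma-voom and without any single VP16 pair. They were picked by smallest p in these same libraries, so this says little about the other genes called for this interaction.

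The edgeR test of the 2 left-out pairs against the 4 pairs gave a larger difference in the left-out pairs for CHAC1 (5.64, adjusted p = 1.41e-11), INHBE (4.96), PTPDC1 (3.51), TRIB3 (2.90), CEBPG (2.84) and GADD45A (2.68). It gave a smaller one for SKP2 (-3.40, adjusted p = 5.97e-11), ERCC6L (-2.80), LPCAT1 (-2.42), PTRF (-2.02), TUBB4B (-1.98) and NR2F2 (-1.78). CHAC1, INHBE, PTPDC1, TRIB3 and CEBPG were lower in set 1 in each of the 4 pairs and higher in both left-out pairs. All 12 kept their call without any single pair, but they too were picked by smallest p in these same libraries.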

How the results depend on the processing

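Pairing rested on the group: each group gave 1 library per index set, and the fit without this replicate block called 1721 genes higher and 1788 lower, with 14 of 134 named genes no longer called. A test against a fold of 1.5 called 371 and 52, and 74 of the 134 were no longer called. With 1 index set coefficient over all 12 libraries, 2696 genes were higher and 2173 lower, and the sign changed for CHAC1 (0.18), RP11-495P10.9 (0.35), INHBE (0.10), SPRY4 (0.23), CEBPG (0.28), AARS (0.021), PCNA (-0.23) and JHDM1D (0.10), none called there. GC and length offsets turned MALAT1 to 0.14 (edgeR adjusted p = 0.0364). Leaving out 1 pair at a time gave 2480 to 3527 genes higher and 2608 to 3498 lower. DESeq2, limma-voom, RLE factors, other count filters and thinning to the smallest total kept both counts within 1.5 times. The VP16 clone alone is the same fit as leaving out the GFP_uninduced pair, which gave the 3527 and 3498.

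Of 2-fold differences in every pair, a prior count of 0.5 gave 11 lower genes, a fold of 1.5 gave 429 higher and 105 lower, and leaving out 1 pair gave 232 to 324 higher and 11 to 19 lower. A lower fold or 1 pair fewer loosens this rule, so its counts could hardly fall. For the clone interaction DESeq2 called 38 higher and 46 lower, no count filter gave 455 higher, and leaving out 1 VP16 pair gave 232 to 413 higher and 299 to 532 lower; leaving out the GFP_uninduced pair was not possible. For the left-out pairs the range was 2370 to 3320 higher and 2797 to 3928 lower. Apart from the loosening of the 2-fold rule, the causes of these changes were not tested. In the GC and length alternative only 16 of 23 histone genes had a value, so it is void for that list. Genes under 1 CPM rest on few reads, and small differences there were not detectable at this depth.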
